A study of Mus musculus with 16 samples.

Results

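The genes described here make cholesterol and fatty acids or control that synthesis. They are 31 genes chosen by their role out of 23279 gene symbols in the deposited table. No rule on measured values set the choice, but earlier results of these data were known when it was made. The set holds 23 sterol genes, from Hmgcs1 to Acat2, and 8 fatty acid genes, from Fasn to Me1. All 31 were listed, with Msmo1 under its older symbol Sc4mol. Of these, 30 entered the tests, which asked for 1 FPKM or more in no fewer than 4 of the 16 libraries: all 23 sterol genes and 7 fatty acid genes. The exception was Me1, the malic enzyme that supplies NADPH, which was listed at 0 to 0.127 FPKM.

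The study measured polyA RNA of mouse pre-B cells, which are B-lineage precursors, in 16 libraries. BCR-ABL1 is the fusion tyrosine kinase of chronic myeloid leukaemia and of a form of acute B-cell leukaemia, and SHP2 is the tyrosine phosphatase encoded by Ptpn11. The labels cross both into 4 groups of 4 libraries. Wild-type libraries carry the label BCR-ABL NULL (-/-) with wild-type SHP2 (+/+), and SHP2-null libraries carry BCR-ABL NULL (-/-) with SHP2 NULL (-/-). BCR-ABL1 libraries carry BCR-ABL WT (+/+), which the library protocol writes as BCR-ABL1, with wild-type SHP2, and BCR-ABL1 SHP2-null libraries carry BCR-ABL WT (+/+) with SHP2 NULL (-/-). The sources used here do not give how SHP2 was removed, how BCR-ABL1 was introduced, or the strain, age and number of the mice. Nothing in the labels ties the 4 libraries of a group to different animals or cultures. The p-values therefore measure only the spread between these libraries, which may be technical.

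Cholesterol is built from acetyl-CoA through mevalonate, farnesyl diphosphate and squalene, and fatty acids are built from the same acetyl-CoA by way of malonyl-CoA. The genes of both routes are switched on together by the membrane-bound transcription factors SREBP1 and SREBP2 (genes Srebf1 and Srebf2), which the escort protein SCAP carries to the Golgi for cleavage when membrane sterol is low, and which the INSIG proteins hold back when it is high. Dividing lymphocytes draw on both routes for new membrane.

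The promoters of these genes are shown first as background, since SREBP acts at promoters with the partner factor NF-Y. Whether SREBP had a part in the values below was not tested. RefSeq promoter entries (build GRCm38.p6, each from 250 bases before to 50 bases after the transcription start) were found for 25 of the 31 genes, 19 of them sterol genes and 6 fatty acid genes. Both strands were searched for CCAAT, the box that NF-Y recognises, for CACNCCAC, a sterol regulatory element core, and for the E-box CACGTG. Of the 19 sterol promoters, 17 held CCAAT (89.5%) and 10 held at least 2 copies, against 41.1% and 13.3% of 27025 genes with a promoter entry. Among the 6 fatty acid promoters, 4 held it. CACNCCAC was found in 3 of 19 sterol promoters (15.8%, against 7.12% of all genes), and CACGTG in 4 of 19 (21.1%, against 8.09%). The GC box GGGCGG was found in 18 of 19 (94.7%, against 38.2%). A match describes the letters only. The 27025 genes include many below the filter on levels, which all 19 sterol genes passed, so the shares are not like for like.

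Below are the 250 bases before the start of 5 of these genes, 5′ to 3′ on the strand of the gene, chosen as the sterol gene with the widest spread (Hmgcs1), a further gene of the same route (Msmo1), the feedback inhibitor (Insig1), the sterol gene that differed most between groups (Mvk) and the fatty acid synthase gene (Fasn). Capitals mark CCAAT, CACNCCAC or CACGTG on either strand, so that CCAAT on the other strand reads ATTGG. The positions are chr13:119690101-119690350 (plus strand) for Hmgcs1, chr8:64733579-64733828 (minus strand) for Msmo1, chr5:28071162-28071411 (plus strand) for Insig1, chr5:114444019-114444268 (plus strand) for Mvk and chr11:120824548-120824797 (minus strand) for Fasn. The start is that of the promoter entry, which can differ from the end of the listed gene. The Fasn stretch lies wholly inside the listed gene (chr11:120805958-120825166), so it is not the sequence upstream of that gene's outer end. The Mvk stretch runs slightly past the listed gene start at 114444264.
Hmgcs1: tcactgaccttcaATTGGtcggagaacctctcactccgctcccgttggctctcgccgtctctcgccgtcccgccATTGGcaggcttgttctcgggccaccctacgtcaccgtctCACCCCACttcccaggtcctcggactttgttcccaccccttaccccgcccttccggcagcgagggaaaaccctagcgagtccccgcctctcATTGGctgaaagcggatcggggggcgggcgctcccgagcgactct
Msmo1: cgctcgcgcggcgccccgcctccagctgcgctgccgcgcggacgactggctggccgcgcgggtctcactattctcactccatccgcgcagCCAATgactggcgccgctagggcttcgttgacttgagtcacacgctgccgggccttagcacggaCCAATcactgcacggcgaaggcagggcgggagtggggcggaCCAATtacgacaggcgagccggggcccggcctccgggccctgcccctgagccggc
Insig1: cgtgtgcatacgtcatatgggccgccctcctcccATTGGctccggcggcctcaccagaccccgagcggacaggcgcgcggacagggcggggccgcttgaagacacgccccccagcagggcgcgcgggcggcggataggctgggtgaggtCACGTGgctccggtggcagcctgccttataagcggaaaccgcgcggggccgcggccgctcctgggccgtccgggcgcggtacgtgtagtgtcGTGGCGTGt
Mvk: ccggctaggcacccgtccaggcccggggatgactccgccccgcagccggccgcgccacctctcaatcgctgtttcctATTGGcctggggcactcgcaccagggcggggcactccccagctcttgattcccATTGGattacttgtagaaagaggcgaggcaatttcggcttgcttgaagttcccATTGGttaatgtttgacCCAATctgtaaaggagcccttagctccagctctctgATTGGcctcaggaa
Fasn: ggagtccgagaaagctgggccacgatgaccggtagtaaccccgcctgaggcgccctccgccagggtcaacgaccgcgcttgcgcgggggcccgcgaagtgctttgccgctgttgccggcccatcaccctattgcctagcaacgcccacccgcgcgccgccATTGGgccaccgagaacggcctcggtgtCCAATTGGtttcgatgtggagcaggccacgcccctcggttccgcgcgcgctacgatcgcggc
In the full window of each gene, CCAAT occurred 4 times at Hmgcs1 (3 of them before the start), 3 times at Msmo1, 1 time at Insig1, 5 times at Mvk and 3 times at Fasn, where 2 of the copies overlap on opposite strands. CACNCCAC occurred 1 time each at Hmgcs1 and Insig1, and CACGTG 1 time at Insig1.

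Before the comparisons, the labels and libraries were checked. Ptpn11 stood at 16.1 to 17.6 FPKM in wild-type libraries and 15.7 to 17.97 in BCR-ABL1 libraries, against 2.87 to 7.44 in SHP2-null and 3.56 to 6.07 in BCR-ABL1 SHP2-null libraries. The SHP2-null means were thus 34.5% and 26.6% of the SHP2 wild-type means, so part of the Ptpn11 signal remained, and the words SHP2-null and SHP2 loss follow the labels. All 11 pre-B markers were present, with a summed level of 1982 to 2510 FPKM per library, while the summed markers of T and NK cells reached at most 1.11 and those of stromal cells at most 0.112 FPKM. Myeloid markers summed to 506 FPKM in replicate 2 of the SHP2-null group, 403 of it from the lysozyme gene Lyz2, against at most 75.7 in each other library. Of 5 adipocyte markers, 3 were at 0 in every library. The sum of the 5 reached 10.3 FPKM in that same SHP2-null replicate 2, against at most 1.91 elsewhere. All of the 10.3 FPKM came from Fabp4, and Adipoq was at 0 in that library. FPKM values hold no counts, so the depth of each library is unknown.

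Across the 16 libraries the tested sterol and fatty acid genes covered a wide range of levels. Farnesyl diphosphate synthase (Fdps) had the highest mean level of the set, 134 FPKM, followed by the fatty acid elongase Elovl6 at 97.1 and ATP citrate lyase (Acly), which makes cytosolic acetyl-CoA from citrate, at 87.2. The isopentenyl diphosphate isomerase Idi1 and the HMG-CoA synthase Hmgcs1 averaged 71.0 and 69.8 FPKM. At the other end, the sterol reductase Tm7sf2 averaged 1.31 FPKM, the acetyl-CoA synthetase Acss2 averaged 1.53 FPKM, and the SREBP retention protein Insig2 averaged 2.85 FPKM against 40.8 for its paralog Insig1. Srebf2, which encodes the factor that favours sterol genes, averaged 19.5 FPKM, and Srebf1, whose product favours fatty acid genes, averaged 10.1.

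What stood out among the sterol genes was how far libraries of the same group lay apart. The median SD between libraries of a group was 0.271 on the log2(FPKM + 1) scale over the 23 sterol genes, against 0.143 over all 10210 genes tested and 0.140 over the 9257 genes within the same range of levels. The SD was above the all-gene median for 21 of 23 sterol genes, and for 11 it was 0.291 or more, a value that 1021 of the 10210 genes tested reached. The fatty acid genes had a median SD of 0.198, and 7 of 7 were above the all-gene median. For the sterol genes, the range of the 4 group means (highest less lowest) had a median of 0.91 times this SD, against 1.33 times over all genes. A range and an SD are different measures, so this ratio does not compare their widths directly.

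**Figure D1:**
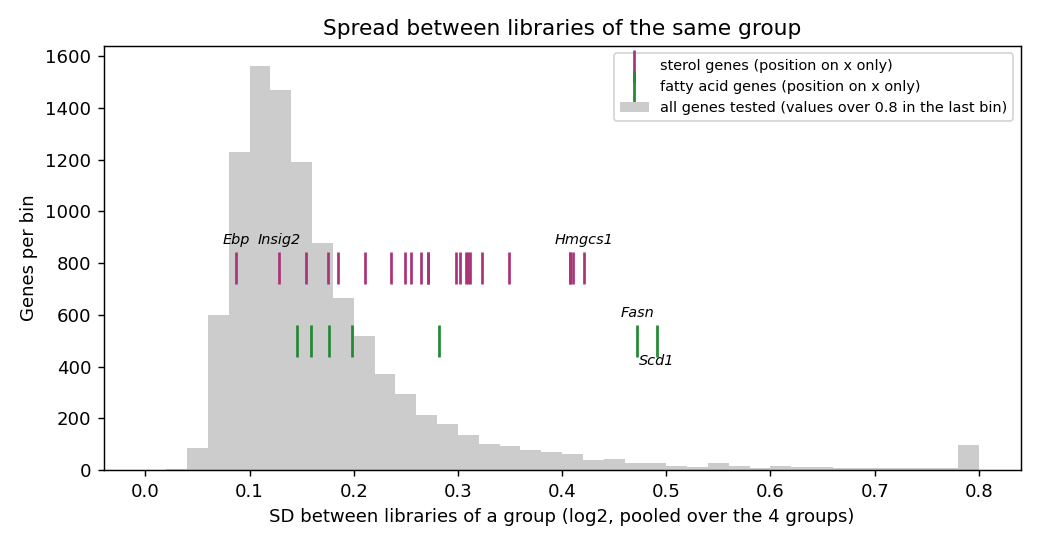
Histogram of the SD between libraries of the same group, pooled over the 4 groups, on the log2(FPKM + 1) scale (x axis) against the number of genes per bin (y axis) for 10210 genes tested, with purple ticks for the 23 sterol genes and green ticks for the 7 fatty acid genes (their height carries no value). Most sterol ticks lie to the right of the peak of the histogram, from Ebp at 0.087 to Hmgcs1 at 0.421, and Fasn (0.472) and Scd1 (0.491) lie farthest right of the set.

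Hmgcs1, which makes HMG-CoA at the entry to the mevalonate route, had the widest spread of the sterol genes (SD 0.421). Its level in replicates 0 to 3 was 81.2, 70.1, 37.45 and 53.5 FPKM in wild-type libraries and 68.25, 58.3, 105 and 40.99 FPKM in SHP2-null libraries. It was 47.1, 91.3, 66.55 and 75.85 FPKM in BCR-ABL1 libraries and 89.0, 76.2, 81.2 and 74.7 FPKM in BCR-ABL1 SHP2-null libraries. Each of the first 3 groups held a library at 47.1 FPKM or less and another above 80, so the groups overlapped, while the BCR-ABL1 SHP2-null libraries stayed close together.

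Insig1, the INSIG protein that SREBP itself induces, followed the same libraries. Its level was 47.9, 41.9, 24.99 and 33.0 FPKM in wild-type, 39.3, 37.5, 45.65 and 23.3 in SHP2-null, 36.7, 47.01, 42.55 and 39.6 in BCR-ABL1 and 51.8, 46.95, 49.2 and 44.8 FPKM in BCR-ABL1 SHP2-null libraries, in replicates 0 to 3. The lowest values were again wild-type replicate 2, SHP2-null replicate 3 and BCR-ABL1 replicate 0. Squalene epoxidase (Sqle), which oxidises squalene, stood at 48.6, 42.8, 29.3 and 35.1 FPKM in wild-type, 37.0, 36.9, 41.97 and 27.1 in SHP2-null, 29.8, 44.05, 34.7 and 37.3 in BCR-ABL1 and 41.6, 40.3, 36.7 and 38.7 FPKM in BCR-ABL1 SHP2-null libraries. Its lowest library was the same in those 3 groups.

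To describe this over the set, a sterol score was taken per library as the mean over the 23 genes of log2(FPKM + 1) less the mean of each gene over the 16 libraries, and a fatty acid score likewise over 7 genes. The sterol score in replicates 0 to 3 was 0.166, 0.128, -0.37 and -0.074 in wild-type libraries and 0.082, 0.005, 0.233 and -0.414 in SHP2-null libraries. It was -0.317, 0.26, -0.062 and -0.026 in BCR-ABL1 libraries and 0.122, 0.152, 0.033 and 0.082 in BCR-ABL1 SHP2-null libraries. Thus 3 groups each held 1 library well below 0 and at least 1 well above it, whereas the 4 BCR-ABL1 SHP2-null libraries spanned 0.118. The range was 0.537, 0.647 and 0.577 in the wild-type, SHP2-null and BCR-ABL1 groups.

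The fatty acid score did not follow the sterol score in every library. It was 0.156, 0.209, -0.228 and 0.155 in wild-type, 0.167, 0.111, -0.179 and -0.47 in SHP2-null, -0.079, 0.231, -0.144 and -0.199 in BCR-ABL1 and 0.172, 0.189, 0.016 and -0.104 in BCR-ABL1 SHP2-null libraries. Wild-type replicate 2 and SHP2-null replicate 3 were the lowest of their groups in both scores, and BCR-ABL1 replicate 1 the highest of its group in both. SHP2-null replicate 2, the library with the myeloid markers, had the highest sterol score of its group (0.233) and a fatty acid score of -0.179, and the part of the myeloid RNA in these values was not tested. Of the total sum of squares over the 16 libraries, differences between the 4 groups made up 8.0% for the sterol score and 13.2% for the fatty acid score. Differences between the 4 replicate numbers made up 20.2% and 54.9%. Groups and replicate numbers each take up some share by chance even without any effect. That share was not estimated, so these values carry no test.

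**Figure D2:**
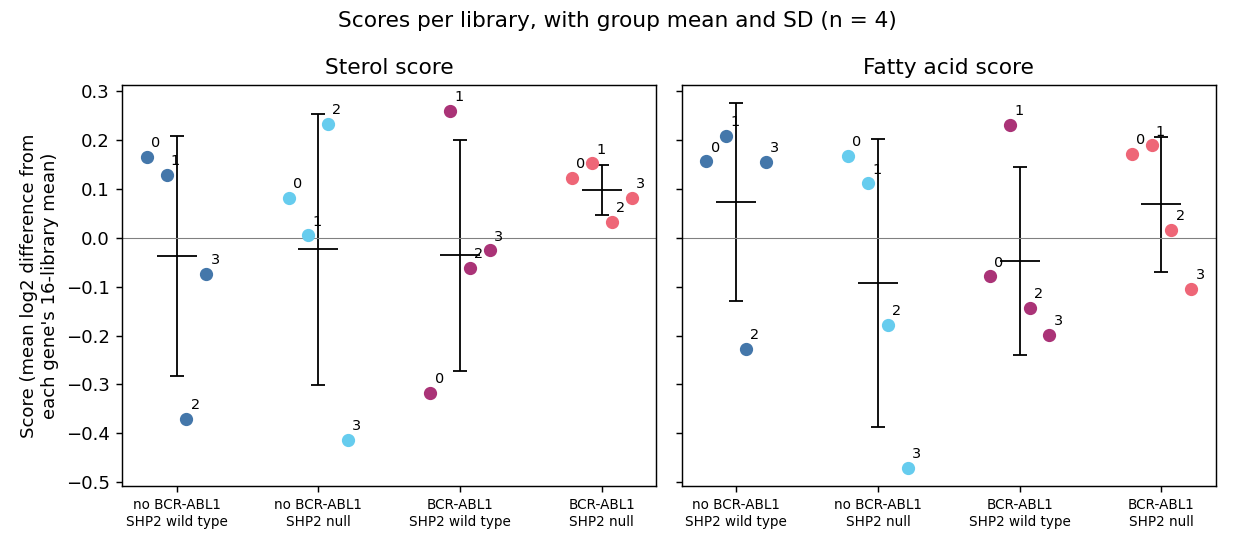
Sterol score (left) and fatty acid score (right) per library on the y axis, in log2 units relative to the 16-library mean of each gene, for the 4 groups on the x axis, with the replicate number beside each point and bars for group mean and SD (n = 4). The sterol scores of wild-type, SHP2-null and BCR-ABL1 libraries run from about -0.4 to 0.26, while the BCR-ABL1 SHP2-null libraries lie between 0.033 and 0.152.

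The sterol genes reached their lowest level in the same library of a group in larger shares than all genes tested did. Wild-type replicate 2 was the lowest of its group for 17 of 23 sterol genes, against 33.3% of all genes tested. SHP2-null replicate 3 was the lowest for 20 of 23, against 24.97%, and BCR-ABL1 replicate 0 for 16 of 23, against 20.5%. In the BCR-ABL1 SHP2-null group the library with the lowest sterol score, replicate 2, was the lowest for 6 of 23, against 17.4%. These libraries were picked by the score of the same genes, so the counts describe how closely the genes moved together and carry no test. In at least 3 of the 4 groups, 15 of 23 sterol genes (65.2%) had their lowest value in that library, as did 4 of 7 fatty acid genes (57.1%) and 6.50% of all genes.

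Between the libraries with the highest and the lowest sterol score of a group, the median ratio of FPKM over the sterol genes was 1.66 in wild-type, 1.62 in SHP2-null and 1.48 in BCR-ABL1 libraries, and 1.02 in BCR-ABL1 SHP2-null libraries. Over all genes tested these ratios were 1.02, 0.96, 0.97 and 0.95. The libraries were picked by the score of the same sterol genes, so higher ratios for those genes follow from the choice. The ratios describe the size of the spread and carry no test. The widest ratios were those of Nsdhl, a sterol dehydrogenase of the demethylation steps, at 2.60 in wild-type libraries, of Hmgcs1 at 2.57 in SHP2-null libraries, and of Mvd, the mevalonate diphosphate decarboxylase, at 2.45 in BCR-ABL1 libraries.

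Genes that reached their lowest level in these libraries came from early and late steps of the route and from its regulators. Mvd, Sqle and Acat2, the cytosolic thiolase that joins acetyl-CoA units, had their lowest level in the low-scoring library of all 4 groups. The lowest level fell in that library in 3 groups for phosphomevalonate kinase (Pmvk), Idi1, Fdps, squalene synthase (Fdft1), lanosterol synthase (Lss), the lanosterol demethylase Cyp51, Tm7sf2, the sterol methyl oxidase Msmo1, Nsdhl, Hmgcs1, Insig1 and Srebf2, and in 2 groups for Mvk. Acat2 lies beside its near-identical copy Acat3 on chromosome 17, so the authors' counting could have split reads between them.

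A few sterol genes stayed apart from this pattern. The sterol isomerase Ebp ran from 17.4 to 21.1 FPKM over the 16 libraries, with an SD of 0.087, the lowest of the set, and had its lowest level in the low-scoring library of 1 group. Insig2 stood at 2.88, 2.68, 3.32 and 2.94 FPKM in wild-type, 2.52, 2.77, 2.77 and 2.80 in SHP2-null, 2.52, 3.40, 2.16 and 3.23 in BCR-ABL1 and 2.87, 2.72, 2.93 and 3.07 FPKM in BCR-ABL1 SHP2-null libraries, and was the lowest in the low-scoring library of 0 of 4 groups. Srebf1 was likewise lowest there in 0 groups, at 9.11, 11.98, 11.1 and 13.2 FPKM in wild-type, 11.4, 12.6, 8.06 and 9.06 in SHP2-null, 7.96, 11.5, 10.3 and 7.18 in BCR-ABL1 and 7.62, 11.6, 8.16 and 10.3 FPKM in BCR-ABL1 SHP2-null libraries. These 3 genes had their lowest value in other libraries in at least 3 of the 4 groups.

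**Figure D3:**
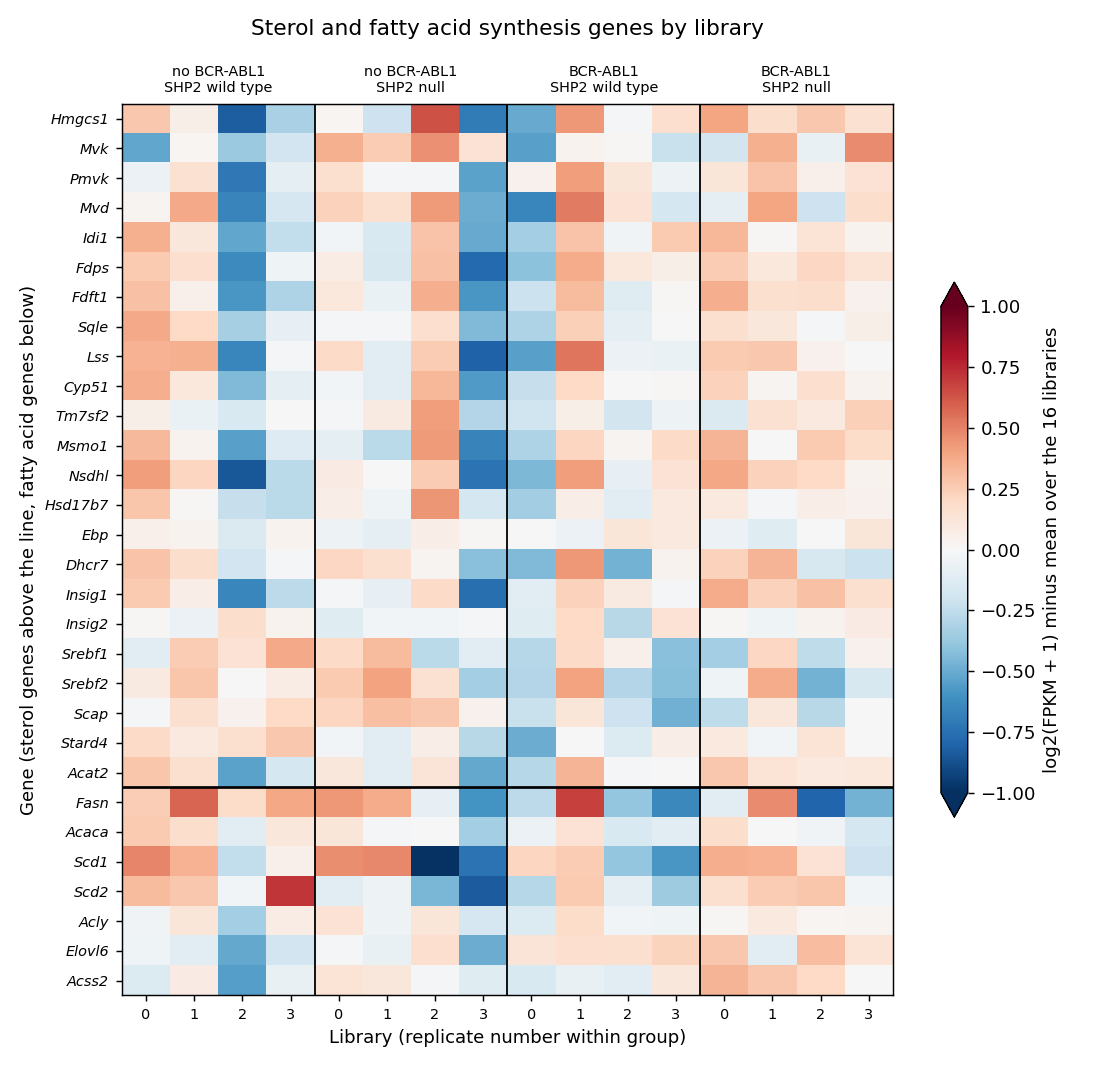
Heat map of 30 genes (y axis, sterol genes above the line and fatty acid genes below) in 16 libraries (x axis, replicate number within group), coloured by log2(FPKM + 1) less the mean of each gene over the 16 libraries. Blue columns mark wild-type replicate 2, SHP2-null replicate 3 and BCR-ABL1 replicate 0 for most sterol genes, while Ebp and Insig2 stay pale.

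Genes listed as other sterol enzymes, outside the score, differed in how closely they followed these libraries. Sc5d, a sterol desaturase, stood at 25.15, 22.5, 16.96 and 20.2 FPKM in wild-type, 19.02, 19.7, 20.9 and 14.6 in SHP2-null, 20.3, 23.2, 20.97 and 21.7 in BCR-ABL1 and 23.9, 20.96, 25.05 and 22.8 FPKM in BCR-ABL1 SHP2-null libraries. It had its lowest value in the low-scoring library of 3 of the 4 groups, as did 9 of 88 tested genes of lipid metabolism outside the set (10.2%, against 6.50% of all genes), while Lbr, a sterol reductase that is also the lamin B receptor, had its lowest there in 0 groups. In wild-type replicate 2, SHP2-null replicate 3 and BCR-ABL1 replicate 0, all 3 tested genes of that list were below their group mean (medians -0.23, -0.02 and -0.05 log2). The 11 genes of the isoprenoid side branches, which use the same farnesyl diphosphate for protein prenylation, ubiquinone and dolichol, had medians of 0.00, 0.06 and -0.03 in those libraries, and all genes tested had -0.03, 0.03 and 0.02.

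SHP2 loss in cells with BCR-ABL1 was the comparison closest to the title of the study. None of the 30 genes passed the test (limma, adjusted p below 0.05 over all genes), and 0 of 30 had an unadjusted p below 0.05, where 0.313% and 3.65% of all 10210 genes did. Groups overlapped for all 30 genes, where 3.1% of all genes did not overlap. Neither the replicate block nor array weights, which give less weight to deviating libraries, called a member (0.47% and 0.411% of all genes). The log2 change was positive for 27 of 30 genes with a median of 0.13, against -0.02 over all genes. The changes ran from -0.07 to 0.32. The median 95% confidence interval reached 0.37 to either side. It is not adjusted for the number of genes tested, so changes larger than this could also go uncalled. In bulk samples, fewer cells of a type and less RNA per cell cannot be told apart.

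Individual genes show how wide the groups were. Hmgcs1 averaged 80.3 ± 6.44 FPKM in BCR-ABL1 SHP2-null against 70.2 ± 18.5 in BCR-ABL1 libraries (SD, n = 4), a log2 change of 0.23 with a 95% confidence interval from -0.34 to 0.80 (limma adjusted p = 1.00). The mean sterol score was 0.097 ± 0.051 against -0.036 ± 0.236, and the fatty acid score 0.068 ± 0.139 against -0.048 ± 0.192 (SD, n = 4), and the groups overlapped in both. The sterol difference of 0.134 became 0.04 without BCR-ABL1 replicate 0 and 0.233 without BCR-ABL1 replicate 1.

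SHP2 loss in cells without BCR-ABL1 gave the clearest single-gene values, at Mvk and Scd2. Here too 0 of 30 genes passed limma's test, where 1.54% of all genes did, and 3 of 30 had an unadjusted p below 0.05, where 16.1% did. The median log2 change was -0.02 for the set and 0.02 for all genes, with 13 of 30 genes positive. Groups did not overlap for 3 of 30 genes, near the share of 9.09% among all genes, namely Mvk (higher) and Scd2 and Stard4 (lower), so these 3 are described because their groups did not overlap, and their not overlapping is no support for them. With the replicate block limma called Mvk and Scd2, 2 of 30 members against 5.75% of all genes, and with array weights it called Mvk, 1 of 30 against 6.31%.

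Mvk encodes mevalonate kinase, which adds the first phosphate to mevalonate. Its level in replicates 0 to 3 was 4.80, 7.42, 5.43 and 6.27 FPKM in the wild-type libraries and 9.61, 8.88, 10.4 and 8.155 FPKM in SHP2-null libraries. Every SHP2-null library lay above every wild-type library, and the mean was 155% of the wild-type mean. The limma log2 change was 0.56 ± 0.16 (SE) with an adjusted p of 0.102, and with the replicate number as a block the limma adjusted p was 0.0301. Without SHP2-null replicate 2, the library with myeloid markers, the change was 0.51 (limma adjusted p = 0.252).

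With BCR-ABL1, Mvk stood at 4.695, 7.52, 7.37 and 6.10 FPKM and, after SHP2 loss, at 6.31, 9.60, 6.865 and 10.5 FPKM. Those groups overlapped, and the log2 change was 0.32 ± 0.16 (SE), with a limma adjusted p of 1.00. The difference between the SHP2-loss change with and without BCR-ABL1 was -0.24 ± 0.23 log2 (SE; limma adjusted p = 0.914), with a 95% confidence interval from -0.73 to 0.24. Mvk lies on chromosome 5 at chr5:114444264-114460591 (GRCm38.p6), 6.69 Mb from Ptpn11, the gene of SHP2. The Mvk transcript holds 59.6% G and C, a higher share than 95.4% of tested genes, and gene deviations from the group mean went with GC content in several libraries (Spearman's rho across genes of 0.513 and -0.376 in wild-type replicates 1 and 0). Those were its highest and lowest wild-type libraries, and the part of GC content in the Mvk values was not tested.

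Acacb, the mitochondrial acetyl-CoA carboxylase, is a fatty acid gene outside the set that lies 6.98 Mb from Ptpn11 on the same side. It was too low for the filter and stood at 0.0622, 0.0799, 0.0742 and 0.0927 FPKM in the wild-type libraries and 0.410, 0.336, 0.436 and 0.294 FPKM in SHP2-null libraries. With BCR-ABL1 it stood at 0.0679, 0.116, 0.0823 and 0.0438 FPKM and, after SHP2 loss, 0.236, 0.327, 0.270 and 0.291 FPKM. In both settings the SHP2-null libraries lay above the SHP2 wild-type ones, and without the filter Acacb rose with SHP2 loss by 0.34 ± 0.03 on the log2(FPKM + 1) scale without BCR-ABL1 and 0.25 ± 0.03 with it (SE; limma adjusted p = 0.000105 and 0.00241). That scale compresses such low values: the mean FPKM after SHP2 loss was 478% and 362% of the SHP2 wild-type mean. Its partner Acaca, the cytosolic acetyl-CoA carboxylase of fatty acid synthesis, ran from 21.97 to 33.8 FPKM with overlapping groups.

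Scd2 and Scd1 encode stearoyl-CoA desaturases, which put the double bond into newly made fatty acids. Scd2 stood at 71.1, 69.1, 55.9 and 94.4 FPKM in the wild-type libraries and 52.5, 55.2, 41.3 and 31.6 FPKM in SHP2-null libraries. All 4 SHP2-null libraries lay below all 4 wild-type libraries, the SHP2-null mean being 62.2% of the wild-type mean. The log2 change was -0.68 ± 0.18 (SE; limma adjusted p = 0.0826), and with the replicate block the adjusted p was 0.0387. Without SHP2-null replicate 2 the change was -0.65 (limma adjusted p = 0.194).

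With BCR-ABL1 the values of Scd2 lay the other way round. They were 46.7, 68.5, 53.2 and 44.4 FPKM in BCR-ABL1 and 63.8, 68.3, 69.4 and 55.9 FPKM in BCR-ABL1 SHP2-null libraries, which overlapped (log2 change 0.29 ± 0.18, SE; limma adjusted p = 1.00). The interaction, the difference between the SHP2-loss change with and without BCR-ABL1, was 0.97 ± 0.26 log2 (SE), with an unadjusted p of 0.00185 and a limma adjusted p of 0.605. It was the smallest adjusted p of the set in that comparison. No gene of the 30 passed the interaction test, as 0.0% of all genes did, and 2 of 30 had an unadjusted p below 0.05, against 5.79% of all genes. The replicate block and array weights also called 0 of 30 there, and 0.0% and 0.0196% of all genes.

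Scd1 varied most of all 30 genes between libraries of a group (SD 0.491). It stood at 74.45, 67.2, 44.3 and 54.7 FPKM in wild-type, 72.85, 74.01, 26.0 and 31.1 in SHP2-null, 61.3, 62.8, 39.9 and 34.9 in BCR-ABL1 and 68.02, 67.3, 58.3 and 45.4 FPKM in BCR-ABL1 SHP2-null libraries. In every group replicates 0 and 1 stood above replicates 2 and 3. The gap was widest in the SHP2-null group, with replicates 0 and 1 above 70 FPKM and replicates 2 and 3 below 32. The groups overlapped in every comparison. Scd1 (chr19:44394450-44407709) and Scd2 (chr19:44293676-44306864) lie close together with Scd3 on chromosome 19, and the authors' counting could have split shared reads between these related genes.

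The sterol carrier gene Stard4, whose product moves cholesterol between membranes, was the third gene without overlap. It stood at 19.7, 18.3, 19.2 and 20.8 FPKM in the wild-type libraries and 16.7, 15.8, 17.9 and 13.9 FPKM in SHP2-null libraries. The SHP2-null mean was 82.5% of the wild-type mean, and the log2 change was -0.27 ± 0.11 (SE), with a limma adjusted p of 0.229. In BCR-ABL1 libraries it stood at 11.8, 17.1, 15.4 and 17.9 FPKM, also below every wild-type library, with a mean 79.8% of theirs. That log2 change was -0.32 ± 0.11 (SE; limma adjusted p = 0.0978), and -0.20 without BCR-ABL1 replicate 0. After SHP2 loss with BCR-ABL1, Stard4 stood at 18.3, 16.75, 18.9 and 16.99 FPKM, which overlapped the BCR-ABL1 group, and its interaction was 0.46 ± 0.15 (SE; limma adjusted p = 0.747).

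**Figure D4:**
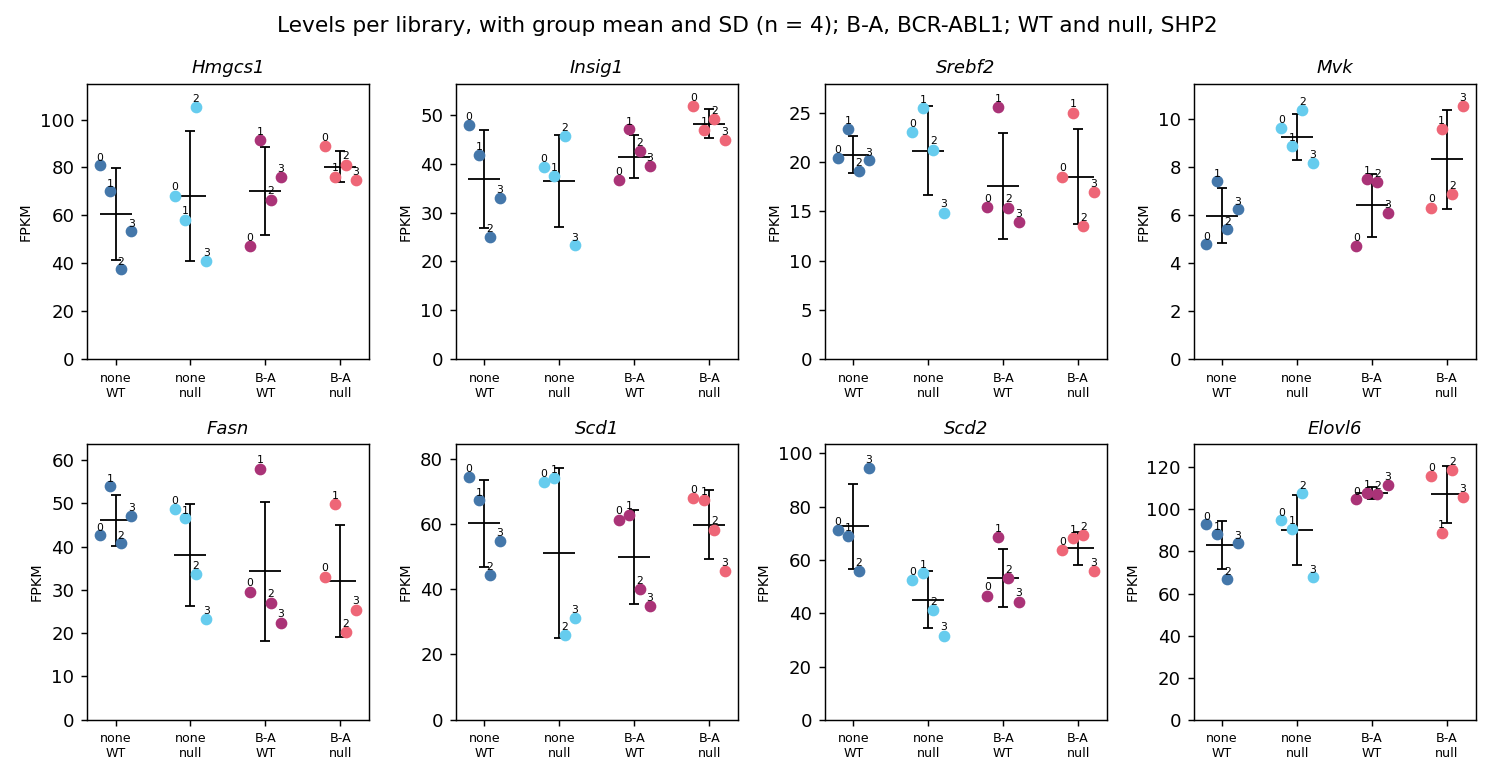
FPKM (y axis, from 0) of 8 genes in the 4 groups (x axis: none, no BCR-ABL1; B-A, BCR-ABL1; WT and null, SHP2), 1 point per library with its replicate number and bars for mean and SD (n = 4). Mvk of SHP2-null libraries without BCR-ABL1 lies wholly above the wild-type libraries and Scd2 wholly below them, whereas Hmgcs1, Srebf2, Fasn and Scd1 overlap between all groups.

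With BCR-ABL1 in cells with wild-type SHP2, Elovl6 lay higher and Stard4 lower, and the median of the set lay near 0. The number of members that passed limma's test was 0 of 30, where 4.67% of all genes passed, and 4 of 30 had an unadjusted p below 0.05, where 19.1% did. The median log2 change was 0.03 for the set and 0.04 for all genes, with 16 of 30 positive. Groups did not overlap for 2 of 30 genes, Elovl6 (higher) and Stard4 (lower), against 11.7% of all genes. The replicate block gave 0 calls among the members (12.1% of all genes), and array weights called Scap and Elovl6 (8.2% of all genes). The sterol score averaged -0.036 ± 0.236 against -0.038 ± 0.246 in wild-type libraries (SD, n = 4).

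Elovl6, which lengthens palmitate to stearate, stood at 93.1, 88.3, 67.0 and 83.9 FPKM in the wild-type libraries and 105, 108, 107 and 112 FPKM in BCR-ABL1 libraries. All BCR-ABL1 libraries lay above all wild-type libraries, with a mean 129.8% of theirs, and the log2 change was 0.38 ± 0.13 (SE), with a limma adjusted p of 0.118. In cells without SHP2 the same gene stood at 94.7, 90.7, 108 and 67.7 FPKM and, with BCR-ABL1, at 116, 88.7, 119 and 106 FPKM. Those groups overlapped, at 0.26 ± 0.13 (SE; limma adjusted p = 0.422), and the change was 0.13 without SHP2-null replicate 3.

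Of the SREBP factors and their regulators, Scap, Srebf1 and Srebf2 had negative log2 changes with BCR-ABL1 in both settings, Insig1 had positive ones (0.20 and 0.43) and Insig2 differed in sign (-0.06 and 0.07). None of them passed the test. Scap stood at 22.1, 25.1, 23.15 and 25.9 FPKM in the wild-type libraries and 19.03, 24.5, 19.3 and 15.8 FPKM in BCR-ABL1 libraries, a log2 difference of -0.29 ± 0.12 (SE; limma adjusted p = 0.176). In SHP2-null libraries it stood at 26.2, 27.8, 27.25 and 23.2 FPKM and, with BCR-ABL1, at 18.6, 24.35, 18.3 and 22.5 FPKM, a log2 difference of -0.31 ± 0.12 (SE; limma adjusted p = 0.256). Groups overlapped in both comparisons. Without BCR-ABL1 replicate 1, the first of these changes was -0.40 and passed (limma adjusted p = 0.0475).

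Srebf2 stood at 20.4, 23.4, 19.1 and 20.15 FPKM in the wild-type libraries and 15.4, 25.55, 15.4 and 13.9 FPKM in BCR-ABL1 libraries, of which replicate 1 alone was above 20. It stood at 23.01, 25.5, 21.3 and 14.9 FPKM in SHP2-null and 18.5, 25.01, 13.5 and 16.9 FPKM in BCR-ABL1 SHP2-null libraries. Its groups overlapped, and its log2 change with BCR-ABL1 was -0.26 ± 0.20 with SHP2 and -0.19 ± 0.20 without it (SE; limma adjusted p = 0.519 and 0.727). The second of these was -0.06 without BCR-ABL1 SHP2-null replicate 2 and -0.34 without SHP2-null replicate 3.

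Fasn, the fatty acid synthase, stood at 42.6, 53.9, 40.7 and 47.05 FPKM in the wild-type libraries and 29.6, 58.01, 27.1 and 22.5 FPKM in BCR-ABL1 libraries. It stood at 48.65, 46.5, 33.6 and 23.3 FPKM in SHP2-null and 33.1, 49.85, 20.2 and 25.45 FPKM in BCR-ABL1 SHP2-null libraries. Replicate 1 was the highest for Fasn in every group except SHP2-null, and for Srebf2 in every group, so this was not particular to BCR-ABL1 libraries. The groups of Fasn overlapped. Transcripts of Srebf1, Srebf2, Scap and Fasn are rich in G and C (median 58.1%, against 49.8% over tested genes with a transcript), as are those of Mvk (59.6%) and Mvd (59.3%). In replicate 1 of the wild-type, BCR-ABL1 and BCR-ABL1 SHP2-null groups, the deviation of a gene from its group mean increased with GC content (Spearman's rho of 0.513, 0.481 and 0.56 across 9298 genes, which are not independent replicates). In replicates 0 and 2 of the BCR-ABL1 SHP2-null group rho was -0.486 and -0.494. The part of this library difference in the values of these 4 genes was not tested.

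BCR-ABL1 in cells without SHP2 gave 22 of 30 positive log2 changes, with a median of 0.16 against -0.01 over all genes. No member passed limma's test (0 of 30, against 1.26% of all genes), and 3 of 30 had an unadjusted p below 0.05, against 13.5%. With the replicate block, too, it was 0 of 30 (5.27% of all genes), while array weights called Srebf2, Scap and Fasn lower and Elovl6 higher, 4 of 30 against 18.2%. Groups did not overlap for 1 gene, Scd2, against 7.07% of all genes. Its mean in BCR-ABL1 SHP2-null libraries was 142.5% of that in SHP2-null libraries, which is 0.53 ± 0.18 on the log2 scale (SE; limma adjusted p = 0.203). This comparison shares its SHP2-null libraries with that of SHP2 loss without BCR-ABL1, in which Scd2 was low in those libraries. Insig1 lay 0.43 ± 0.19 log2 higher (SE; limma adjusted p = 0.338), with overlapping groups. The difference of the mean sterol score was 0.121, which became -0.009 without SHP2-null replicate 3 and 0.206 without SHP2-null replicate 2. The fatty acid score differed by 0.161, with overlapping groups, and by 0.035 without SHP2-null replicate 3 and 0.248 without SHP2-null replicate 0. Between libraries of the same replicate number it was higher with BCR-ABL1 in 4 of 4 pairs (by 0.006, 0.078, 0.195 and 0.366 in replicates 0 to 3).

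For the remaining members the groups overlapped in every comparison. Dhcr7, the reductase that yields cholesterol, ran from 5.31 to 10.8 FPKM, and Hsd17b7, a ketosteroid reductase of the demethylation steps, from 5.05 to 9.45. Acly ran from 68.5 to 98.6 FPKM. Acss2, which makes acetyl-CoA from acetate, ran from 0.714 to 2.17 FPKM. For these 4 genes the log2 changes lay between -0.17 and 0.26 in the 4 comparisons between groups.

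Around the set, 108 further genes of lipid metabolism were listed in 10 groups by role, of which 88 were tested. Their share of calls lay near that of all genes or below it. SHP2 loss gave 0 calls among them in either setting (1.54% of all genes without BCR-ABL1 and 0.313% with it). BCR-ABL1 gave 1 higher and 3 lower calls with wild-type SHP2 (4.55%, against 4.67% of all genes) and 1 higher call without SHP2 (1.14%, against 1.26%). With the replicate block 5 of the 88 were called for SHP2 loss without BCR-ABL1 (5.68%, against 5.75% of all genes), namely Tmem97, Hsd17b12 and Hacd3 lower and Slc25a20 and Acadvl higher. For SHP2 loss with BCR-ABL1 the block called 0 of the 88 (0.47% of all genes). In the main fit, the gene called in both BCR-ABL1 comparisons was Mylip, a ubiquitin ligase that limits lipoprotein uptake. Mylip stood at 3.93, 3.55, 4.39 and 5.36 FPKM in the wild-type libraries and 8.63, 6.435, 6.90 and 6.85 FPKM in BCR-ABL1 libraries. It rose by 0.63 ± 0.12 log2 (SE; limma adjusted p = 0.00741), and without SHP2 by 0.65 ± 0.12 (SE; limma adjusted p = 0.0161). The second call was lost without BCR-ABL1 SHP2-null replicate 2 and in a fit of the compared groups only (limma adjusted p = 0.0756 and 0.0577).

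Prkaa2, a catalytic subunit of the AMP-activated kinase that restrains lipid synthesis, stood at 2.44, 2.24, 3.41 and 2.64 FPKM in the wild-type libraries and 1.11, 1.14, 1.495 and 1.82 FPKM in BCR-ABL1 libraries. It fell by 0.62 ± 0.11 log2 (SE; limma adjusted p = 0.0042), with no overlap between the groups. Hsd17b12, the ketoacyl reductase of fatty acid elongation, fell by 0.39 ± 0.09 (SE; limma adjusted p = 0.0205). Lrp8, an apolipoprotein E receptor, fell by 0.40 ± 0.09 (SE; limma adjusted p = 0.0178). Both calls were lost in some fits that left out 1 library: at wild-type replicate 0 or BCR-ABL1 replicate 0 for Hsd17b12 (limma adjusted p = 0.0534 and 0.0778), and at wild-type replicate 3, BCR-ABL1 replicate 0 or BCR-ABL1 replicate 2 for Lrp8 (0.053, 0.066 and 0.0614). A fit of the compared groups only lost both as well (limma adjusted p = 0.078 for Hsd17b12 and 0.0565 for Lrp8). Groups of isoprenoid branches, sterol efflux, SREBP processing, glycerolipid synthesis, acetyl-CoA and NADPH supply and fatty acid oxidation held 0 calls in each comparison, as did the other sterol enzymes. With the replicate block, BCR-ABL1 with wild-type SHP2 gave 7 calls among the 88 genes (7.95%, against 12.1% of all genes), which added Rnf145 and Pgd (lower) and Acadvl (higher) to the 4 above. BCR-ABL1 without SHP2 gave 3 (3.41%, against 5.27%), which added Prkaa2 and Taldo1 (lower) to Mylip.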

How the data were processed

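PolyA RNA of 16 mouse pre-B libraries was made into stranded libraries (Illumina TruSeq) from 150 ng of RNA each and read for 100 cycles from both ends, per the labels' protocols, which also state that sets of 4 libraries, 1 of each group, were loaded together. For each library and gene symbol the authors deposited FPKM, that is, fragments scaled by transcript length and by the mapped fragments of the library. The submitters' processing notes name Bowtie, Cufflinks and the mouse build mm10 (GRCm38); the sources used here do not give versions, the annotation, or how strand and shared reads were handled. The 16 per-library files equal the series table. Values of 254 symbols listed more than once were summed. Summed FPKM ran from 348923 to 443702. Depth is unknown: the commonest ratio between libraries held for 9.51% to 18.8% of low genes (below 0.05 FPKM, 1% tolerance), so whole reads were not recovered.

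The 10210 genes that reached 1 FPKM in 4 or more libraries were tested on log2(FPKM + 1), a scale that understates changes of low genes, with limma 3.58.1 in R 4.3.3 (lmFit, eBayes with trend, all 16 libraries in 1 fit, two-sided, Benjamini-Hochberg over all genes, adjusted p below 0.05), in 5 comparisons. The members, lists and tests were chosen with earlier results of these data known. Every member is accounted for; values per library are given for regulators, for genes that head the scores or are named by a test, and, chosen after their values were seen, for Mvk, Stard4, Elovl6, Sc5d and Acacb. Some other genes of lipid metabolism are not reported here. Replicate numbers come from the titles. Deviations of same-numbered libraries correlated at 0.22 to 0.78 for SHP2 loss with BCR-ABL1, 0.19 to 0.51 without it and 0.24 to 0.68 for BCR-ABL1 without SHP2, so the numbers were taken to pair these libraries. For BCR-ABL1 with wild-type SHP2 they correlated at 0.05 to 0.64, and the numbers were not taken to pair them. These choices rest on the correlations alone and conflict, since pairing in the other comparisons would also link these libraries. Whether the replicate numbers pair libraries is therefore unsettled. The main fit held no term for the replicate number, so its calls ignore the pairing where it was assumed. The replicate block held that term in every comparison, also in the one whose libraries were not taken as paired. Alternatives were pseudocount 0.1, no filter, a mean of at least 5 FPKM, median-ratio and quantile scaling, array weights, the replicate block, a fit on the compared groups only, and leaving out each library.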

Additional observations from a re-analysis of the deposited data

Results flagged for a closer look

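Within each group of 4 libraries, the highest or lowest value was set against the others by Dixon's ratio for 30 genes and both scores. Of 128 such sets 5 passed, where chance passes about 1 in 20. The fatty acid score of wild-type replicate 2 was -0.228, against 0.155 to 0.209 in the other 3 libraries. Ebp in the same library stood at 17.4 FPKM, against 19.8 to 20.1. Insig2 in SHP2-null replicate 0 stood at 2.52 FPKM, against 2.77 to 2.80. Srebf2 in BCR-ABL1 replicate 1 stood at 25.6 FPKM, against 13.9 to 15.4. Acly in BCR-ABL1 SHP2-null replicate 1 stood at 92.8 FPKM, against 87.6 to 88.3.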

How the results depend on the processing

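The count of members called stayed at 0 for SHP2 loss with BCR-ABL1 and for the interaction under every alternative run. With the replicate number as a block it became 2 for SHP2 loss without BCR-ABL1 (Mvk and Scd2) and changed no other call among the members. With array weights, which give less weight to libraries that deviate, it became 1 for SHP2 loss without BCR-ABL1 (Mvk), 2 for BCR-ABL1 with wild-type SHP2 (Scap and Elovl6) and 4 for BCR-ABL1 without SHP2 (Srebf2, Scap, Fasn and Elovl6); the cause was not tested. Leaving out 1 library at a time, the count ran from 0 to 1 for BCR-ABL1 with wild-type SHP2 (Scap, without BCR-ABL1 replicate 1) and was 0 in the other comparisons. No value reversed its direction with a call. Over all genes the counts moved more: for SHP2 loss without BCR-ABL1 157 became 587 with the block, 644 with array weights, 34 in a fit of the compared groups, 70 with a mean of at least 5 FPKM and 80 to 164 with a library left out. For BCR-ABL1 with wild-type SHP2, 477 became 1231, 837 and 186 with the block, array weights and the higher filter, and 235 to 477 with a library left out. For BCR-ABL1 without SHP2, 129 became 538 and 1861 with the block and array weights, 30 in a fit of the compared groups, 33 with the higher filter and 49 to 176 with a library left out. For SHP2 loss with BCR-ABL1, 32 became 11 with the higher filter and 20 to 30 with a library left out. The interaction, at 0, gave 3 without the filter and 2 with array weights. The depth of the libraries is unknown, which leaves the counting error of low genes such as Tm7sf2, Acss2 and Acacb unmeasured.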

Other observations

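Slc25a1, the mitochondrial citrate carrier that feeds ATP citrate lyase, was not in either score and stood at 58.3, 71.7, 41.8 and 80.8 FPKM in wild-type, 75.4, 69.9, 103 and 58.3 in SHP2-null, 64.8, 82.55, 87.1 and 68.8 in BCR-ABL1 and 73.8, 76.65, 80.7 and 81.5 FPKM in BCR-ABL1 SHP2-null libraries. Its lowest value was in the library with the lowest sterol score in 3 of the 4 groups. The lipoprotein receptor gene Scarb1 was also lowest there in 3 groups, at 19.3, 18.9, 15.8 and 19.1, 16.4, 15.98, 19.1 and 12.6, 15.2, 21.3, 18.5 and 17.4 and 14.35, 15.8, 14.9 and 16.5 FPKM in the same order. Both genes were named after their values were seen, from 9 of 88 tested genes of lipid metabolism outside the set that did so in at least 3 groups (10.2%, against 6.50% of all genes). In the SHP2-null group each of them was highest in replicate 2, the library with 506 FPKM of summed myeloid markers.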
